A study of Mus musculus with 18 samples.

Results

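The 42 imprinted genes described here were a list of known imprinted loci, matched by symbol to the 55413 genes that GENCODE release M21 places on the autosomes and sex chromosomes of GRCm38. All 42 symbols were found once, 34 of them protein-coding and 8 of them noncoding, at 18 loci. The chromatin came from B cells of the spleen of WT mice and of *Mir155*-deficient mice (KO), kept on a C57BL/6 J background and cultured for 2 days in 1% O2 with anti-CD40, an anti-IgM F(ab')2 fragment and IL-4. *Mir155* encodes the microRNA miR-155, and the study asked how its loss changes binding of the histone demethylase KDM2A and the dimethylation of lysine 36 of histone H3 (H3K36me2). ChIP-seq was performed for each of these targets in 3 libraries of each genotype. Replicate 1 was male and replicates 2 and 3 were female in each group, and 6 input libraries completed the 18 samples. The labels do not say whether pooled animals were used, so the p-values below measure the spread between these libraries.

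Genomic imprinting restricts expression of a gene to the copy inherited from one parent. The choice is written by DNA methylation that is laid down in the egg or the sperm at germline differentially methylated regions, so that a CpG-rich promoter can be methylated on one parental copy and free of methylation on the other. KDM2A carries a CXXC zinc finger that binds CpG dinucleotides free of methylation and a Jumonji domain that removes H3K36me2. H3K36me2 is laid down by the NSD methyltransferases over intergenic and genic chromatin, and DNMT3A, an enzyme that lays down DNA methylation, is recruited by it. Of the 42 members, 19 are known to have a maternally methylated germline region at a promoter. By classes written by hand, 22 are expressed from the paternal copy, 12 from the maternal copy, and 8 are imprinted in some isoforms or tissues. The ChIP-seq reads do not separate the parental copies, and fewer bound copies or cells and weaker binding per copy cannot be told apart.

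Promoter sequences are shown for members that lie at the ends of the range of KDM2A binding. They are the 250 bases before a RefSeq start site in GRCm38.p6, read 5′ to 3′ on the strand of the gene, with each CpG in capitals. *Gnas* (chr2:174329756-174330005, plus strand) and *Inpp5f* (chr7:128611115-128611364, plus strand) had a peak in all 6 libraries and belong to loci with a maternal germline region. The segments shown were not checked against the position of that region. *H13* (chr2:152669211-152669460, plus strand) is the host of *Mcts2* and was chosen after its values were seen.
Gnas: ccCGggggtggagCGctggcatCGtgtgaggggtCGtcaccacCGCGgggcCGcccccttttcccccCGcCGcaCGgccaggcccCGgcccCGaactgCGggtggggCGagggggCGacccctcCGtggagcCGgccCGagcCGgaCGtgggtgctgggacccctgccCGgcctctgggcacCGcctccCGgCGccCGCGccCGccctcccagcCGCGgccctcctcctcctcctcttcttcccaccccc
Inpp5f: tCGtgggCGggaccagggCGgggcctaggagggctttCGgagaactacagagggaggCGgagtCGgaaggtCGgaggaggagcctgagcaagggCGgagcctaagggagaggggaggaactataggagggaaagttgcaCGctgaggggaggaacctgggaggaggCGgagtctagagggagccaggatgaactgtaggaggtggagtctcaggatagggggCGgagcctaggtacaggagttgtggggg
H13: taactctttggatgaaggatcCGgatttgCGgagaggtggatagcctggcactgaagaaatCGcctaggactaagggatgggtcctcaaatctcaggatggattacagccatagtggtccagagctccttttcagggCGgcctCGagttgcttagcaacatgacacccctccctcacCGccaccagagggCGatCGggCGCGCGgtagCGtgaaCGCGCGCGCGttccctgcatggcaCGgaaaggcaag
The next promoters, *Igf2r* (chr17:12769707-12769956, minus strand) and *Zrsr1* (chr11:22971755-22972004, plus strand), belong to members that were bound in WT and not in KO by the rule given below, which was applied to windows of 2 kb around each start site. The *Zrsr1* segment itself lay under a peak in the 3 WT libraries and in no KO library, and the *Igf2r* segment in WT3 and KO2 alone.
Igf2r: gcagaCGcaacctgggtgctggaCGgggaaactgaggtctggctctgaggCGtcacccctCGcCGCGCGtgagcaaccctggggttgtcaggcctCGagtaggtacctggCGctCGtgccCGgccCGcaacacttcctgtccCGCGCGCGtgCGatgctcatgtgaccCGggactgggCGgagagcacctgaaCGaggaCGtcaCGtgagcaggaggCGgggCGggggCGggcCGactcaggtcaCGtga
Zrsr1: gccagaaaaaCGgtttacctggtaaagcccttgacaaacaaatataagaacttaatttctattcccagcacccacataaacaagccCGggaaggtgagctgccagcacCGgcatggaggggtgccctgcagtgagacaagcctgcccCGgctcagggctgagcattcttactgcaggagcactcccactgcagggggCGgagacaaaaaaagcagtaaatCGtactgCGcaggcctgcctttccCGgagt
The last group had no KDM2A peak within 2 kb of any start site in any library. It holds *Grb10* (chr11:12037421-12037670, minus strand), *Plagl1* (chr10:13090582-13090831, plus strand) and *Mcts2* (chr2:152686898-152687147, plus strand), the members with the most CpG in this segment among those without a peak.
Grb10: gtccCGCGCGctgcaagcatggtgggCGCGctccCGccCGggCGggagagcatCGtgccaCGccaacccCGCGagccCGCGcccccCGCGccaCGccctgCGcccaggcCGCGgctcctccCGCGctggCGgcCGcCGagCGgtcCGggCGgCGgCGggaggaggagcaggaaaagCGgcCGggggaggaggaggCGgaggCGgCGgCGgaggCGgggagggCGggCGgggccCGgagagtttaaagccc
Plagl1: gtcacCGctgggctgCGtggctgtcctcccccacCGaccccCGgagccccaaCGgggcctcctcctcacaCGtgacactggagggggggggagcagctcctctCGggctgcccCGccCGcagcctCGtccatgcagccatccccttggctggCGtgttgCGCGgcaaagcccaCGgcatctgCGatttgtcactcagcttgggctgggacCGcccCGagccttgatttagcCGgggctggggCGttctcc
Mcts2: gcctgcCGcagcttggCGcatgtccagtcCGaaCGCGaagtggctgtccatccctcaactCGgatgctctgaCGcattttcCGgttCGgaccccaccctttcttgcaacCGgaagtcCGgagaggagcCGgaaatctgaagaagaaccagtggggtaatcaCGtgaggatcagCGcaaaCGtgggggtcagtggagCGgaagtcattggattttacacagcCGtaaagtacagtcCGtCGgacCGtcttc
The *Grb10* segment holds 40 CpG and the *Gnas* segment 29. *Igf2r* has 27, *Mcts2* 20, *Plagl1* 19, *H13* 18, *Inpp5f* 11 and *Zrsr1* 8. The unbound *Grb10* promoter was therefore the richest in CpG of the 8 shown. The table held segments for 31 members and 45 member promoters, of which the 12 under a KDM2A peak in at least 1 library had a median of 16 CpG and the other 33 a median of 8. *Impact* and 10 other members (*H19*, *Kcnq1*, *Cdkn1c*, *Peg10*, *Sgce*, *Nespas*, *Rtl1*, *Peg13*, *Trappc9* and *Kcnk9*) had no segment. The hexamer TGCCGC, searched on both strands (TGCCGC or GCGGCA), was found in 7 of the 45 member segments (15.6%). It was found in 8.68% of the 32851 segments of the same length for all genes. The 7 include overlapping segments of *Mest*, chr6:30737800-30738049 and chr6:30737803-30738052. The hexamer holds a CpG, and the median CpG was 10 over member segments and 6 over all segments. The difference in share was not tested.

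KDM2A was found at the imprinted promoters about as often as at the promoters of all genes. A peak within 2 kb of any transcription start site (TSS) in 2 or more of the 3 libraries of a genotype counted a member as bound there. By this rule 12 of the 42 members (28.6%) were bound in WT and 9 (21.4%) in KO, while 24.6% of all genes were bound in WT and 20.9% in KO. The protein-coding members were bound in 12 of 34 cases in WT (35.3%) and in 9 in KO (26.5%), beside 47.7% of all protein-coding genes in WT and 41.7% in KO. None of the 8 noncoding members was bound in either genotype. The share of all noncoding genes was not computed, so this count is not read as a trait of the members. A peak was absent from all 6 libraries at 21 members (50%), beside 64.5% of all genes. Only *Gnas*, *H13*, *Trappc9* and *Inpp5f* held a promoter peak in all 6 libraries, which is 4 of 42 members beside 13.1% of all genes.

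The shares were further apart among promoters rich in CpG. A gene was called CpG-rich when the 500 bp on each side of a TSS had 50% GC or more and a ratio of observed to expected CpG of more than 0.6. Of the 28 CpG-rich members, 11 (39.3%) were bound in WT and 8 (28.6%) in KO. Of all 13400 CpG-rich genes, 73.5% were bound in WT and 66.9% in KO. No peak was found in any library at 10 of the 28 CpG-rich members (35.7%), namely *Kcnq1*, *Peg10*, *Sgce*, *Mkrn3*, *Plagl1*, *Grb10*, *Dlk1*, *Nap1l5*, *Mcts2* and *Kcnk9*, beside 14.6% of all CpG-rich genes. *Trappc9* was the bound member that was not CpG-rich, with a highest ratio of 0.527. These shares describe a chosen list and were not tested.

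**Figure D1:**
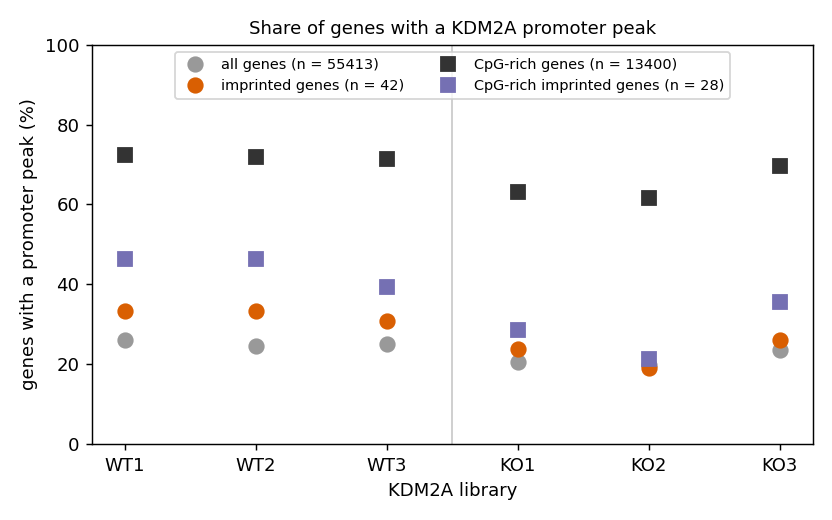
Percent of genes with a KDM2A peak within 2 kb of a TSS (vertical axis) in each of the 6 KDM2A libraries (horizontal axis), for all genes, imprinted genes and the CpG-rich genes of each. In each library the CpG-rich imprinted genes (21.4 to 46.4%) lie below all CpG-rich genes (61.6 to 72.5%), and the imprinted genes as a whole (19.05 to 33.3%) lie near all genes (19.8 to 26.2%).

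The count per library was lower in KO. The libraries of WT held a promoter peak at 14, 14 and 13 members, and those of KO at 10, 8 and 11. The groups did not overlap, with a difference of means of −4.00 members. The KO lists were also shorter, with 15384 to 21702 KDM2A peaks against 23369 to 29102 in WT, and the share of all genes with a promoter peak ran from 19.8 to 23.6% among the KO libraries and from 24.7 to 26.2% among those of WT. When each list was cut to its 15384 strongest peaks, the counts were 10, 12 and 11 in WT and 10, 8 and 10 in KO, so the groups touched at 10 and the difference was −1.67.

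The members were also counted by parental class, beside 24.6% of all genes and 73.5% of all CpG-rich genes bound in WT. The classes were written by hand and do not describe B cells, where expression by parental copy was not measured. A gene in the paternal or maternal class may be imprinted in some tissues alone. Differences between the classes were not tested. Of the 8 members classed as imprinted in some isoforms or tissues, 7 were bound in WT and the same number in KO. The exception in both was *Grb10*, an adaptor protein that restrains insulin signalling. Of the 22 members classed as paternally expressed, 3 were bound in WT (*Igf2*, *Impact* and *Zrsr1*) and 1 in KO (*Impact*). Of the 12 members classed as maternally expressed, 2 were bound in WT (*Igf2r* and *Ube3a*) and 1 in KO (*Ube3a*). Among CpG-rich members alone the counts in WT were 6 of 7, 3 of 15 and 2 of 6 in these classes. Of the 19 members with a maternal germline region, 4 were bound in WT (*Gnas*, *Impact*, *Inpp5f* and *Zrsr1*) and 3 in KO, and of the other 23 members 8 were bound in WT and 6 in KO. These counts take a peak near any TSS of the gene, and binding at the germline region itself was not scored. At *Inpp5f* the window at the first exon held a peak in all 6 libraries, and a window at an internal CpG-rich TSS in WT1, WT2 and KO2 alone.

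**Figure D2:**
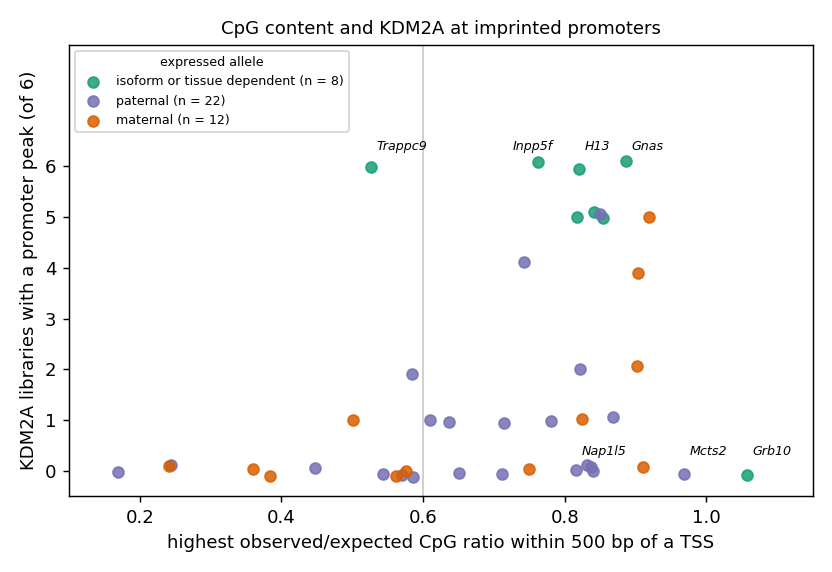
Highest observed over expected CpG ratio around a TSS (horizontal axis; the line marks 0.6) against the number of KDM2A libraries with a promoter peak (vertical axis, shifted slightly so that points do not hide each other) for the 42 members, coloured by the parental class written by hand. *Grb10* and *Mcts2* have high ratios and no peak, and 4 members reach 6 libraries.

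At 6 loci a listed gene lies wholly inside another. The host had a promoter peak in more libraries than its guest at 5 of them, and at the other neither *Kcnq1*, a potassium channel gene, nor *Kcnq1ot1* inside it had a peak in any library. *H13*, which encodes signal peptide peptidase, had a promoter peak in 6 libraries, and *Mcts2*, a retrogene within it that is expressed from the paternal copy, in 0. *Herc3*, a gene of the HERC ubiquitin ligase family, had a peak in 5 libraries and *Nap1l5* within it in 0. *Trappc9*, a subunit of a vesicle tethering complex, had a peak in 6 and *Peg13*, the noncoding RNA inside it, in 2. *Blcap* had a peak in 5 and *Nnat*, which encodes neuronatin, in 1. *Commd1*, a regulator of NF-κB and copper handling, had a peak in 5 and *Zrsr1*, related to the splicing factor U2AF, in 4. The guests *Mcts2*, *Nap1l5*, *Nnat* and *Zrsr1* are CpG-rich, and *Peg13* is not. Windows of *Nap1l5*, *Nnat* and *Zrsr1* overlapped a window of their host. Both peaks near *Nnat* in WT2 and all 4 libraries' peaks near *Zrsr1* also lay in a window of *Blcap* or *Commd1*, while each host had its own peak at a separate window, chr2:157564331-157568361 for *Blcap* and chr11:22976996-22984382 for *Commd1*.

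The promoter peaks had been selected by their overlap with a TSS window, which limits their distance to it. Over the 70 pairs of a member and a library with a promoter peak, the strongest peak spanned a TSS of the member in 52 and overlapped an exon of it in 61. Its centre lay in an exon in 40, in an intron in 26 and upstream in 4. The median width was 666 bp and the median distance of the centre to the nearest TSS 241 bp. The fold of these peaks, the authors' ratio of the signal to the local control background, ran from 2.36 to 4.17. Within each library the median of the bound members was near that of all bound genes, for example 2.92 against 2.86 in WT1 and 2.83 against 2.89 in KO2. The members had 98 separate promoter windows, 67 of which held no KDM2A peak in any library. KDM2A was found in at least 1 library at 22 of the 34 windows with a CpG-rich TSS and at 9 of the 64 without one.

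*Gnas*, which encodes the stimulatory G protein subunit Gs alpha, had KDM2A folds of 3.15, 3.12 and 3.14 in WT and 3.08, 3.03 and 3.03 in KO. The peaks lay at chr2:174325570-174332287, a window with 10 TSS that holds the promoter sequence printed above, and reached 4413 bp in KO3. The deposited folds of *Gnas* were lower in each KO library, which 10.7% of the 7246 genes with a peak in all 6 libraries also showed. After centring each library on its median the log2 difference (KO minus WT) was 0.02 (SE 0.10). A second *Gnas* window, chr2:174282320-174287358, held a peak of fold 2.45 in WT1 alone, and the same peak was the one peak of *Nespas*, the noncoding antisense RNA of the locus.

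*H13* had folds of 2.86, 3.13 and 2.91 in WT and 2.83, 3.52 and 2.78 in KO at chr2:152667461-152671534. KO2 was the highest and the groups overlapped. *Trappc9* had folds of 2.97, 2.85 and 3.30 in WT and 3.19, 3.51 and 3.27 in KO at chr15:73059045-73063204. WT3 lay among the KO libraries, so the groups overlapped. *Inpp5f*, a phosphoinositide phosphatase, had folds of 2.95, 3.77 and 3.08 in WT and 3.25, 2.78 and 4.17 in KO, the widest spread of the 4. The WT1 value came from an internal promoter, and at the first exon the fold of WT1 was 2.33. *Inpp5f* was also bound at more than one promoter. The window at its first exon, chr7:128609328-128613360, held a peak in all 6 libraries. The window at chr7:128685546-128690489, at an internal CpG-rich TSS, held one in WT1, WT2 and KO2.

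No difference between genotypes passed the test for these 4 members. By limma with Benjamini-Hochberg adjustment over the 7246 genes with a peak in all 6 libraries, the log2 differences were 0.19 (SE 0.12) for *Trappc9*, 0.11 (SE 0.14) for *Inpp5f* and 0.09 (SE 0.11) for *H13*, with adjusted p-values from 0.892 to 0.993 over the 4. Of all genes tested 0 (0%) were called and 377 had an unadjusted p under 0.05, none of them a member. The signs for *Inpp5f* and *H13* rested on KO3 and KO2, and were −0.04 and −0.03 without them. The difference for *Trappc9* was 0.12 without WT2. The sign for *Gnas* turned to −0.01 without WT2 and to −0.04 with no centring.

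**Figure D3:**
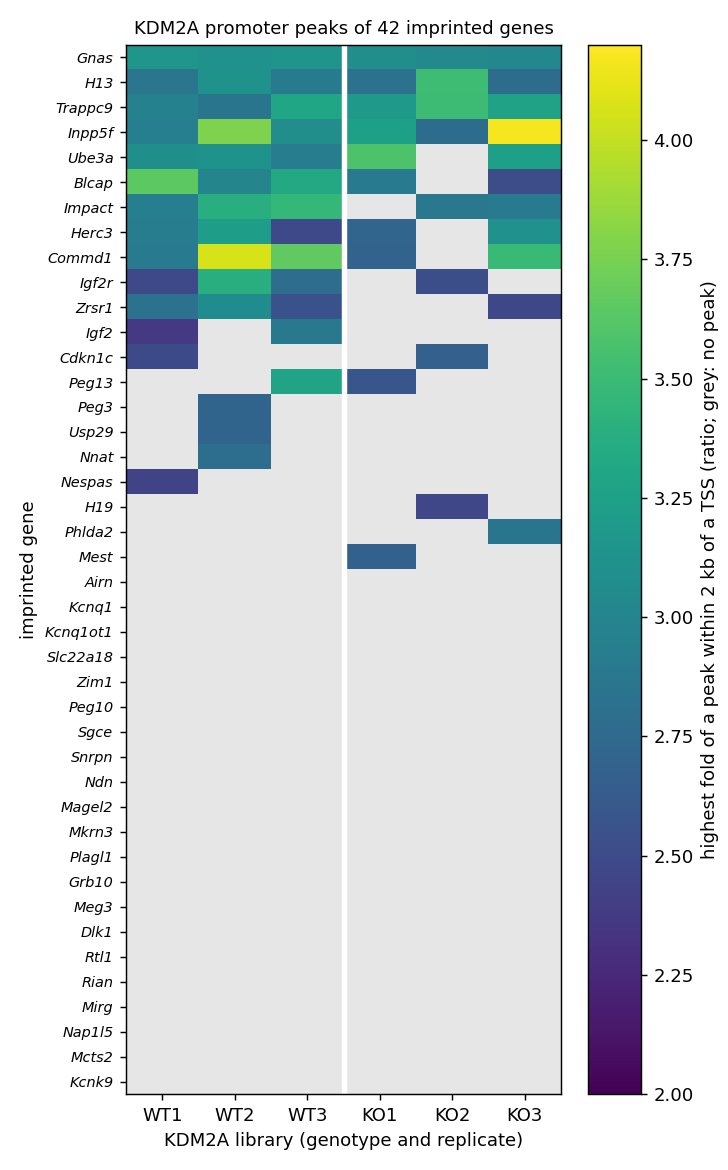
Highest fold of a KDM2A peak within 2 kb of a TSS (colour, ratio) for the 42 members (rows) in the 6 KDM2A libraries (columns), with grey where no peak was called. The top 4 members have a peak in all 6 libraries and the lower 21 in none, and most single gaps among the 5-library members are in KO2.

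The members with a peak in 5 libraries were *Ube3a*, *Blcap*, *Herc3* and *Commd1*, all lacking it in KO2, and *Impact*, a regulator of translation, lacking it in KO1. *Ube3a*, a ubiquitin ligase, had folds of 3.10, 3.12 and 2.93 in WT and of 3.59 in KO1 and 3.24 in KO3. Its neighbours *Snrpn*, *Ndn*, *Magel2* and *Mkrn3*, all paternally expressed, had no promoter peak in any library. *Commd1* had folds of 2.92, 4.07 and 3.67 in WT and of 2.70 in KO1 and 3.49 in KO3. KO2 was the shortest KDM2A list.

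Binding was found in WT and not in KO, by the rule of 2 of 3 libraries, for *Igf2r*, *Zrsr1* and *Igf2*. These are 3 of the 12 members bound in either genotype, beside 19.2% of all such genes, and no member was bound in KO alone. *Igf2r*, the receptor that removes the growth factor IGF2, had folds of 2.48, 3.38 and 2.79 in WT and of 2.53 in KO2, with no peak in KO1 or KO3. These peaks lay at chr17:12767664-12771664, the window of the sequence above, and KO2 held a further peak of fold 2.49 at an internal TSS. *Zrsr1* had folds of 2.83, 3.07 and 2.55 in WT and of 2.48 in KO3, with no peak in KO1 or KO2, at chr11:22970005-22975228. *Igf2*, the growth factor itself, had folds of 2.36 in WT1 and 2.89 in WT3, and no peak in WT2 or in KO. The peaks at chr7:142660331-142660978 (WT1) and chr7:142660594-142660891 (WT3) had their centres in an intron, and the one in WT1 also overlapped an untranslated part of an exon. The promoter window of the antisense gene *Igf2os* also held these peaks.

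The percent of the promoter windows under KDM2A peaks gave a test for members with peaks in some libraries only. *Zrsr1* was covered over 10.4, 21.02 and 21.8% in WT and 0, 0 and 12.4% in KO. *Igf2r* was covered over 7.55, 4.75 and 4.11% in WT and 0, 9.19 and 0% in KO, and *Igf2* over 3.85, 0 and 1.77% in WT and 0% in KO. KO2 overlapped WT for *Igf2r*, KO3 for *Zrsr1*, and WT2 overlapped KO for *Igf2*. On the scale of log2(percent + 1) limma gave differences of −2.91 (SE 1.13) for *Zrsr1*, −1.54 (SE 1.14) for *Igf2r* and −1.25 (SE 0.80) for *Igf2*, each with an adjusted p of 0.662. The *Igf2r* difference was −2.66 without KO2, −0.98 without KO1 or KO3, and −0.51 with equal numbers of strongest peaks. For *Igf2* it was −0.73 without WT1, −1.87 without WT2, and −0.49 with equal numbers. On the scale of log2(percent + 0.1) the differences were −5.08 for *Zrsr1*, −3.57 for *Igf2r* and −3.18 for *Igf2*, so their sizes depended on the constant added. Of the 21 members covered in at least 1 library 0 were called, 1 (*Zrsr1*) had an unadjusted p under 0.05 and 16 had a negative difference. Of all 19655 genes tested 0 (0%) were called and 1298 had an unadjusted p under 0.05, 1237 of them lower in KO. The median log2 difference was −0.90 over the members and −0.58 over all genes, and scaling to the share of the genome under peaks moved the latter to −0.02. Coverage was lower in each KO than in each WT library for 3 of 21 members (*Ube3a*, *Inpp5f* and *Commd1*), beside 10.1% of all genes tested.

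The other members had a promoter peak in 1 or 2 libraries or in none. *Cdkn1c*, which encodes the cell cycle inhibitor p57, had a peak in WT1 (fold 2.495) and KO2 (2.67), and *Peg13* in WT3 (3.29) and KO1 (2.59). *H19*, a growth-restraining noncoding RNA, had 1 in KO2, *Phlda2* in KO3 and *Mest* in KO1. *Peg3*, a zinc finger gene, and *Usp29*, a ubiquitin protease gene that starts beside it in the opposite direction, shared 1 peak in WT2. All 5 members of the *Dlk1*-*Meg3* locus, namely *Dlk1*, a ligand related to those of Notch, *Rtl1*, derived from a retrotransposon, and the noncoding RNAs *Meg3*, *Rian* and *Mirg*, had none. *Peg10*, *Sgce*, *Zim1*, *Slc22a18* and *Kcnk9* had none either. *Airn*, the noncoding RNA antisense to *Igf2r*, had none near a TSS and 1 to 3 peaks in its body in 5 libraries. The 4 peaks at the *Igf2r* promoter described above lay within its body and are among them. The members *Kcnq1*, *Kcnq1ot1*, *Snrpn* and *Grb10* also had body peaks alone, in 1 or 2 libraries each.

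H3K36me2 peaks were called over the bodies of the 42 members about as often as over those of all genes. A peak touched the body of 18 of the 42 members (42.9%) in at least 1 library, beside 38.5% of all genes, and of 6 members in all 6 libraries, beside 8.05% of all genes. The median coverage of the members was 0% in each library, as it was for all genes, and the mean came to 3.00, 4.08 and 4.90% for WT against 2.55, 0.973 and 0.732% for KO. Over all genes the mean came to 5.94, 7.01 and 7.06% for WT against 5.04, 1.80 and 1.59% for KO. No H3K36me2 peak in body or promoter and no KDM2A promoter peak in any library was found for 16 members, among them all 5 of the *Dlk1*-*Meg3* locus, *Peg10*, *Sgce* and all members of the *Snrpn* locus other than *Ube3a*. A further 8 members, *H19*, *Igf2*, *Cdkn1c*, *Phlda2*, *Peg3*, *Usp29*, *Mest* and *H13*, had a KDM2A promoter peak in some library and no H3K36me2. The shares of all genes by these joint rules were not computed, so the counts do not set the members apart. Taken singly, 64.5% of all genes had no KDM2A promoter peak in any library.

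Coverage was highest at *Commd1*, with 40.3, 50.4 and 39.1% of the body under H3K36me2 peaks in WT and 27.3, 12.8 and 12.8% in KO. *Inpp5f* followed with 21.7, 27.3 and 26.7% in WT and 14.2, 7.71 and 8.72% in KO. In both genes each KO library lay below each WT library, and KO1 lay nearest to WT. *Zrsr1*, which lies inside *Commd1*, had 2.98, 35.9 and 32.2% in WT and 0% in the 3 KO libraries, with WT1 far below the other WT libraries. *Airn* had 9.32, 11.2 and 14.0% in WT and 7.30, 1.01 and 2.87% in KO. *Gnas* had 7.43, 10.9 and 12.5% in WT and 4.67, 3.05 and 0.506% in KO. Both genes were lower in each KO library. *Blcap* had 14.8, 4.27 and 8.42% in WT and 6.64, 7.51 and 0% in KO, and its groups overlapped. *Peg13* had 36.8% in WT3, 26.6% in KO1 and 0% elsewhere, so its mean rested on 1 library of each genotype. *Grb10* had 3.49, 7.30 and 7.13% in WT and 3.39, 0.962 and 2.85% in KO, so that WT1 and KO1 nearly touched. *Kcnq1ot1*, the noncoding RNA that silences its neighbours on the paternal copy, had 0.298, 1.65 and 0.643% in WT and 0, 0 and 0.232% in KO.

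**Figure D4:**
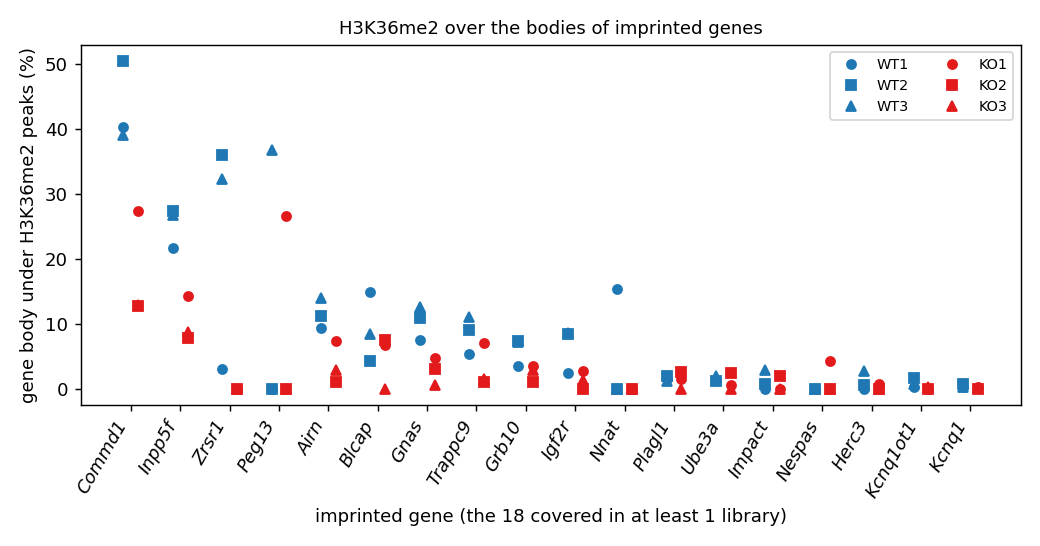
Percent of the gene body under H3K36me2 peaks (vertical axis) for the 18 members covered in at least 1 library (horizontal axis, ordered by mean), with WT libraries in blue and KO libraries in red. *Commd1*, *Inpp5f* and *Zrsr1* show WT above KO without overlap, and *Peg13* has 1 covered library in each genotype.

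Coverage was thus lower in each KO than in each WT library for 7 of the 18 covered members (38.9%), namely *Commd1*, *Inpp5f*, *Zrsr1*, *Airn*, *Gnas*, *Grb10* and *Kcnq1ot1*, beside 19.2% of the 21330 genes covered in at least 1 library, and higher for 0. Only a gene covered in each WT library can be lower in this way, and the share among such genes alone was not computed. *Zrsr1* lies inside *Commd1*, so their sequences overlap. By limma on log2(percent + 1) the differences (KO minus WT) were −4.08 (SE 1.13) for *Zrsr1*, −1.76 (SE 0.80) for *Gnas*, −1.62 (SE 0.77) for *Airn*, −1.33 (SE 0.50) for *Commd1* and −1.26 (SE 0.50) for *Inpp5f*, each with an adjusted p of 0.391. For *Grb10* the difference was −1.06 (SE 0.82, limma adjusted p = 0.470) and for *Kcnq1ot1* −0.73 (SE 0.41, adjusted p = 0.411), and they were −0.71 without KO2 and −0.45 without WT2. Of the 18 members 0 were called, 3 (*Zrsr1*, *Commd1* and *Inpp5f*) had an unadjusted p under 0.05, and 17 had a negative difference, the exception being *Nespas* at 0.79 (SE 0.69). Of all genes 113 (0.53%) were called, 111 of them lower in KO, and 2274 had an unadjusted p under 0.05. The median difference was −1.13 over the 18 members and −1.17 over all genes tested. Scaling each library to the share of the genome under its peaks moved the median of all genes to −0.58. It left −3.66 for *Zrsr1*, −0.85 for *Gnas* and −0.63 for *Airn*, while *Commd1* came to −0.11, *Grb10* to −0.105, *Kcnq1ot1* to −0.42 and *Inpp5f* to −0.08, with limma adjusted p-values from 0.634 to 0.967. Equal numbers of strongest peaks, with a median of −0.64 over all genes, gave −1.88 for *Zrsr1*, −0.90 for *Commd1*, −0.76 for *Airn*, −0.68 for *Inpp5f*, −0.66 for *Grb10* and −0.13 for *Kcnq1ot1*, and turned *Gnas* to 0.08. Peaks with a −log10 q of at least 2 gave −1.98 for *Commd1*, −0.72 for *Grb10* and −0.33 for *Airn*. They turned *Gnas* to 0.30 and *Inpp5f* to 0.49, and left *Zrsr1* and *Kcnq1ot1* uncovered in each library. With log2(percent + 0.1) the differences were −7.26 for *Zrsr1*, −2.43 for *Kcnq1ot1*, −2.28 for *Gnas*, −1.98 for *Airn*, −1.38 for *Commd1* and for *Grb10*, and −1.34 for *Inpp5f*. The sizes for these members thus depended on which peaks were kept and on the constant added, and the direction for *Gnas* and *Inpp5f* on which peaks were kept.

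The 113 calls became 0 with the replicate block and 0 with peaks of −log10 q of at least 2. They also depended on KO1. Its H3K36me2 list held 106720 peaks over 3.63% of the genome, whereas KO2 and KO3 held 37447 and 45180 peaks over 1.59 and 1.45%, and the WT lists covered 4.17 to 5.33%. Without KO1, 2600 of 19989 genes (13%) and 2 of 17 members were called, the members being *Commd1* at −1.67 (limma adjusted p = 0.0260) and *Inpp5f* at −1.50 (adjusted p = 0.0362). With the female libraries alone 2348 of 18640 genes (12.6%) and 3 of 16 members were called, namely *Commd1* (−1.72), *Inpp5f* (−1.61) and *Zrsr1* (−5.13). KO1 is also the male KO library, so sex and the length of its list cannot be told apart.

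The loci as a whole showed the same range. From the first to the last base of its members, the *Commd1*-*Zrsr1* locus was under H3K36me2 peaks over a mean of 43.3% in WT and 17.6% in KO, the *Inpp5f* locus over 25.2 and 10.2%, and the *Gnas* locus over 9.80 and 2.61%. The *Nnat*-*Blcap* locus had 9.16 and 4.72%, the *Igf2r* locus 7.75 and 2.66%, and the *Trappc9*-*Peg13* locus 7.13 and 2.62%. At the other end the *Dlk1*-*Meg3* locus, 297 kb long, had 0.202% in WT and 0.0780% in KO, with 1 KDM2A peak among the 6 lists. The *H19*-*Igf2* locus had 0.135% in WT and 0% in KO. The *Peg3*, *Peg10*, *Mest* and *H13*-*Mcts2* loci had 0% in each of the 6 libraries. The values for a locus with more than 1 member include intergenic sequence and other genes between members.

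**Figure D5:**
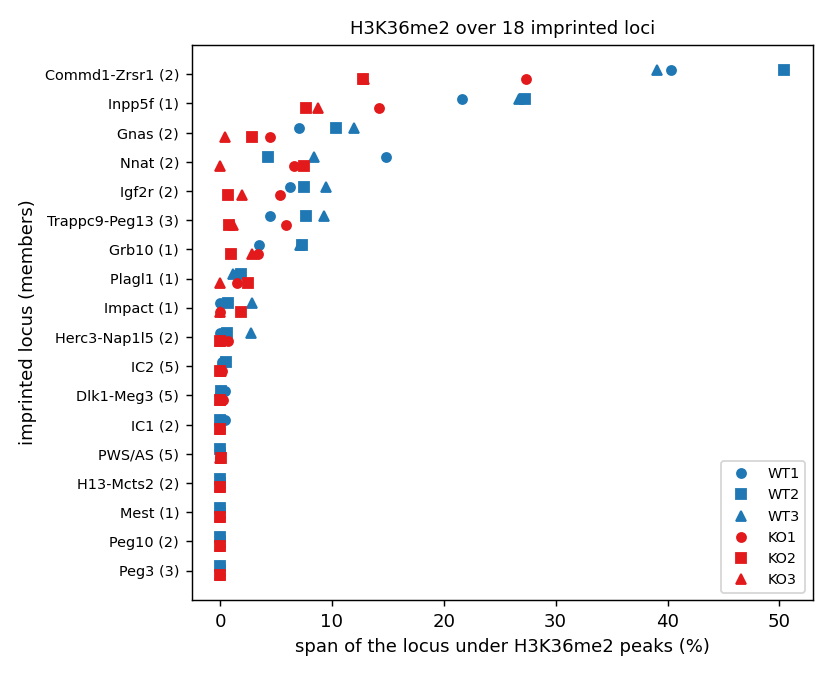
Percent of each of the 18 imprinted loci under H3K36me2 peaks (horizontal axis) in the WT (blue) and KO (red) libraries, with the number of members in parentheses. The *Commd1*-*Zrsr1* and *Inpp5f* loci stand above 20% in each WT library, and the 4 lowest loci are at 0% in each library.

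Other genes of the system were described by counts. Of 49 further imprinted genes, 15 (30.6%) were bound by KDM2A in WT and 13 (26.5%) in KO, beside 24.6 and 20.9% of all genes. H3K36me2 lay in the body of 29 (59.2%) in at least 1 library, beside 42.9% of the 42 members and 38.5% of all genes. These shares were not tested. Of their 29 CpG-rich genes, 12 were bound in WT (41.4%) and 9 in KO (31.03%), shares close to those of the CpG-rich members. Of 28 genes of proteins that set, read or erase imprints, such as DNA methyltransferases, *Zfp57*, *Ctcf* and the *Nsd* genes, 25 were bound in WT and 24 in KO, and 20 held a peak in all 6 libraries, beside 13.1% of all genes. Of these 28 genes 25 were CpG-rich, of which 24 were bound in WT and 23 in KO, beside the 73.5 and 66.9% of all CpG-rich genes given above. None of these further genes was called by limma for KDM2A fold, KDM2A coverage or H3K36me2 coverage.

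The label of the cells was checked with marker genes. Of the B cell markers, *Cd79a*, *Cd79b*, *Pax5* and *Cd22* held a KDM2A promoter peak in all 6 libraries, *Blk* in 5, *Ms4a1* in 4 and *Fcer2a* in 3. None of the 4 T cell markers and none of the 4 myeloid markers was bound in either genotype, and 1 of 4 erythroid markers (*Klf1*) was. Mean H3K36me2 body coverage in WT ran from 0 to 11.2% over these B cell markers, from 0 to 5.27% over the T cell markers, from 7.31 to 52.01% over the myeloid markers and from 0 to 37.2% over the erythroid markers. The mean over the 7 B cell markers was 4.275 to 5.46% in the WT libraries, 4.30% in KO1, 0% in KO2 and 0.0212% in KO3. The myeloid list had a mean of 23.0 to 28.0% in WT and 7.65 to 18.8% in KO, the erythroid list 9.45 to 11.5% in WT and 0 to 7.90% in KO, and the T cell list 0 to 3.955% in WT and 0 to 0.493% in KO. The part of other cell types in the values above was not tested. Peak lists hold no measure of *Mir155* expression, so they do not check the genotype.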

How the data were processed

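ChIP-seq libraries for KDM2A and H3K36me2 (3 WT and 3 KO each) were analysed from 12 deposited peak lists. Reads had been aligned by the authors to GRCm38 with BWA and broad peaks called per library with MACS2 in nf-core/chipseq (v.1.2.2), with no pooling. The MACS2 version and read filters are not given in the sources used here. The deposited fold is a ratio over the local control, and the deposited −log10 p-values and −log10 q-values were used for alternatives alone. The lists carry no read counts, so depth is unknown and a shallower library may hold fewer peaks.

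Peaks overlapping a window of 2 kb around any GENCODE M21 TSS, or the gene body, by at least 1 bp were scored for all genes. For each gene the highest fold, or log2(percent covered + 1), was compared between genotypes with limma 3.58.1 in R 4.3.3 (lmFit, eBayes with trend; Benjamini-Hochberg adjustment, threshold 0.05). Folds were centred on the library median. The limma comparisons were tested on simulated data. Other values were computed in Python 3.11.15. Locus spans, host and guest pairs and the *H13* sequence were added after values were seen, and the members, lists and parental classes (hand-written from general knowledge) were chosen with earlier results of these data known. One marker gene is not reported here. Members named singly with all libraries were those bound in only one genotype, those with a KDM2A promoter peak in all 6 libraries, the 6 of highest H3K36me2 coverage and those not overlapping between genotypes.

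Alternatives were a 1 kb window, peak centres, a −log10 q of at least 2, equal numbers of peaks, other scales and pseudocounts, each library left out, a replicate block and the female libraries alone.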

Additional observations from a re-analysis of the deposited data

How the results depend on the processing

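No member was called for KDM2A fold under any alternative. For KDM2A promoter coverage, 0 genes were called except when all 55413 genes entered the fit, which gave 318 calls and 1 member, *Mest*, a gene covered over 0.381% in KO1 alone. For H3K36me2 gene-body coverage the 113 calls became 0 with peaks of −log10 q of at least 2, 54 with equal numbers of peaks, 45 with no log, 0 with the replicate block, 2348 with the female libraries, and 74 to 2600 with 1 library left out (74 without KO replicate 3, 2600 without KO replicate 1). Members called for it were 0 to 2 with 1 library left out and 3 in the female libraries. Why these counts moved was not tested. The mean count of members with a KDM2A promoter peak differed by −1.67 with equal numbers of peaks and by −4.67 to −3.17 with 1 library left out.

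Replicate numbers were not used to pair the libraries in the main comparisons. Deviations of same-numbered libraries correlated at −0.01 to 0.03, which cannot show whether they were prepared together. The replicate block, which leaves fewer degrees of freedom, called 0 genes in each of the 3 fits.

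Log2 differences of some members changed sign, and none was called in the main comparison or under the setting that changed its sign. For KDM2A fold these were *Gnas* (−0.03963 not centred; −0.01344 without WT replicate 2 to 0.05224 without WT replicate 1), *H13* (−0.0305 without KO replicate 2 to 0.1639 without KO replicate 3) and *Inpp5f* (−0.03983 without KO replicate 3 to 0.2287 without KO replicate 2). For H3K36me2 coverage these were *Blcap* (1.812 with equal numbers of peaks), *Gnas* (0.3012 with −log10 q of at least 2, 0.08317 with equal numbers), *Inpp5f* (0.4939 with −log10 q of at least 2) and *Peg13* (1.595 with either, 0.02095 when scaled to the genome share under peaks, and −1.746 without KO replicate 1 to 1.595 without WT replicate 3). The lists carry no counts, so what depth limits cannot be stated.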
